A study of Mus musculus with 6 samples.

Results

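The 8 genes described here are the Hedgehog pathway genes Shh, Ptch1, Smo, Sufu, Gli1, Gli2, Gli3 and Hhip, of 32285 genes in single-nucleus RNA count matrices of the mouse brainstem. They were chosen by name, in a list drawn up with earlier results of these same libraries known, Gli2 in oligodendrocytes among them. Their values are therefore a description and no independent test. All 8 symbols had a row in each of the 6 matrices. The libraries came from the pons and medulla of wild-type C57BL6/J males. In the CIH group (chronic intermittent hypoxia), nitrogen ran into the chamber for 60 s and brought oxygen down to between 4.5 and 5%, then air brought it back to 21% over up to 5 min. These cycles ran 80 times a day over 8 h from postnatal day 22 to 43, and the Normoxia group stayed in room air. Each group had 3 libraries of sorted nuclei from frozen brainstem. Both groups were weaned on postnatal day 21 and housed with littermates. How many animals each library holds is not given, so p-values measure only the spread between libraries, which may be partly technical.

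Hedgehog ligands such as Sonic hedgehog (Shh) bind Patched 1 (Ptch1), a receptor that otherwise holds the membrane protein Smoothened (Smo) inactive. Active Smo acts in the primary cilium and frees the zinc finger transcription factors Gli1, Gli2 and Gli3 from their inhibitor Sufu. Gli2 is known mainly as an activator and Gli3 mainly as a repressor, while Gli1, Ptch1 and Hhip, a decoy receptor for the ligands, are textbook targets of the pathway. In the adult brain, Shh made by neurons is known to act on astrocytes, and in the embryo Shh helps to specify oligodendrocyte precursors.

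Of 40139 nuclei in which 500 or more genes were seen and no more than 5% of UMIs (unique molecular identifiers) were mitochondrial, 38976 were used. The libraries stood apart in several ways. Normoxia replicate 2 held 1163 nuclei, 17.6% of its nuclei, whose barcodes were also in CIH replicate 1, against at most 31 between any other pair of libraries. These nuclei had 7.95 times as many UMIs in CIH replicate 1 as in Normoxia replicate 2 (median; 1st to 99th percentile 5.78 to 9.30). The median correlation of log counts was 0.596 for the same barcode and 0.374 for the next barcode in the list, and they were left out of Normoxia replicate 2, a choice made after the data were seen. CIH replicate 3 had a median of 0.366% mitochondrial UMIs against 0.0709 to 0.0955% elsewhere, and 3.35% astrocytes against 0.703 to 1.06%. Replicates 1 and 2 were close to each other in both groups (chi-square per gene 2.38 in CIH and 2.34 in Normoxia), while every other pair lay between 18.2 and 64.8. Library totals ran from 26733243 to 46754345 UMIs.

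Each nucleus was put in a class where at least 45% of a class's marker genes were detected and the next class had at most 50% of that share. This placed 29318 nuclei, among them 10533 oligodendrocytes, 15742 neurons, 1289 microglia and macrophages, 621 endothelial cells, 609 astrocytes and 295 oligodendrocyte precursors, and left 9658 without a class. Neurons held granule neurons, a cerebellar type, besides neurons with the glutamate transporter Slc17a6 and neurons with GABA or glycine markers. The 12 astrocyte markers kept out of the gates summed to 8082 to 8862 CPM (UMIs per 1e+06 UMIs) in the astrocytes of each library, against 35.9 to 597 in other classes. Levels below are CPM of the UMIs summed over a class in a library. They are compared within a gene only, since counts of nuclear RNA also depend on gene length.

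Gli2 lies on chromosome 1 (mm10, 118834132 to 119053619, minus strand) and overlaps no other gene of the matrices. The 250 bases before its RefSeq start (GRCm38.p6, chr1:119053620-119053869, minus strand) are shown because most results below turn on it. Beside them stand those of Hhip (chr8:80058009-80058258, minus strand), the only one of the 8 genes highest in oligodendrocytes. Capitals mark CpG dinucleotides, 22 in the Gli2 window and 28 in the Hhip window.

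Gli2: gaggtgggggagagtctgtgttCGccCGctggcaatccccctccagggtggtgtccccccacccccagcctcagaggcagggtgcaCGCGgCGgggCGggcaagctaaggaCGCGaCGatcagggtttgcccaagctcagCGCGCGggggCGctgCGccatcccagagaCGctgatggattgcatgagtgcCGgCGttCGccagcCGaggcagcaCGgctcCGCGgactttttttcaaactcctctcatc
Hhip: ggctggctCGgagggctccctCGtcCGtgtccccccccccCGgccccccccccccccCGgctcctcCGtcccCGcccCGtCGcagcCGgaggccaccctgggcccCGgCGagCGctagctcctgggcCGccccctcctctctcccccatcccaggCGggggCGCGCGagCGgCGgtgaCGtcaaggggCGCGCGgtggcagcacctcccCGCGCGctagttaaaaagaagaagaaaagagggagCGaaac

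RefSeq windows of 300 bases, 250 before and 50 after the start, were matched for 6 of the 8 genes (Ptch1, Smo, Sufu, Gli2, Gli3 and Hhip). The Gli binding 9-mer GACCACCCA was searched on both strands. It was in none of the 6 windows and in 83 of 32851 windows of all genes (0.253%). The hypoxia-inducible factor core ACGTG, added after the data were seen, was also in none of the 6 windows on either strand, and in 19.6% of all windows. This says only that these letters were not in these windows.

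Shh, the ligand, was low everywhere. Among the 8 classes ranked, it was highest in GABA or glycine neurons (3.25 ± 1.09 CPM, mean ± SD, n = 6 libraries), followed by Slc17a6 neurons (2.74 ± 0.391) and oligodendrocyte precursors (2.67 ± 5.21, with 13.0 CPM in its highest library and 0 in its lowest), and each range overlapped the next. Granule neurons had 1.50 ± 0.381 CPM and oligodendrocytes 0.420 ± 0.417. Astrocytes had a single Shh UMI, in CIH replicate 3, and endothelial cells none in any library. In Purkinje neurons, known for Shh in the developing cerebellum, 4 UMIs were counted, all in the Normoxia libraries, from 8 to 32 nuclei per library. Cholinergic neurons, also too few to be ranked, had 8 UMIs (0 to 12.8 CPM, from 2 to 30 nuclei per library). Shh overlaps the antisense gene 9530036O11Rik, and whether the counting used strand is not given in the sources used here.

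Ptch1, the receptor, was highest in astrocytes at 490 ± 63.9 CPM (403 to 560), 4.38 times the mean of granule neurons (112 ± 16.2). Granule neurons and oligodendrocytes (89.6 ± 11.9) overlapped. Below them came oligodendrocyte precursors, GABA or glycine neurons (47.0 ± 5.33), Slc17a6 neurons (40.7 ± 4.60), endothelial cells and microglia and macrophages (24.5 ± 10.7), each overlapping its neighbour. Ptch1 had UMIs in every class tested in every library. After every nucleus was thinned to 1000 UMIs, it was seen in 30.9% of astrocytes (95% exact binomial interval 27.2 to 34.9, counting error only), 12.3% of granule neurons and 7.85% of oligodendrocytes.

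Smo, the signal transducer, had a different order. Astrocytes (103 ± 20.4 CPM) and microglia and macrophages (87.1 ± 6.44) overlapped at the top. Both stood above endothelial cells (20.7 ± 8.39), and microglia and macrophages were 4.21 times as high as these. Neuron classes had 1.52 to 2.37 CPM and oligodendrocytes 0.886 ± 0.60, the lowest of the 8 classes. In fibroblasts, gated with only 5 to 30 nuclei per library and so not ranked, Smo ranged from 67.1 to 233 CPM.

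Sufu, which binds and restrains the Gli factors, was the most even of the 8. Its class means ran from 36.9 ± 4.66 CPM in Slc17a6 neurons to 67.6 ± 12.2 in microglia and macrophages, and every class overlapped the next in order.

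The Gli factors were astrocyte genes here. Gli1, whose RNA is a common readout of the pathway, had 30.5 ± 16.0 CPM in astrocytes (18.4 to 61.3). Its mean was at most 0.351 in any other ranked class, with none at all in oligodendrocyte precursors, microglia and macrophages or endothelial cells. These astrocyte values rest on 3 to 32 UMIs per library. Gli1 shares its 3′ end with the opposite-strand gene Arhgap9 and overlaps the antisense gene Gm47200. Gli2 had 217 ± 30.9 CPM in astrocytes (184 to 271), 24.2 times its mean in oligodendrocytes (8.98 ± 12.3, from 0.849 to 32.9, the highest in CIH replicate 3). Endothelial cells had no Gli2 UMI in any library, granule neurons 0.874 ± 0.438 CPM, and oligodendrocyte precursors 0 in all 3 CIH libraries and in Normoxia replicate 2. Gli3 had 410 ± 55.5 CPM in astrocytes (325 to 484), 30.2 times its mean in GABA or glycine neurons (13.6 ± 9.30). In oligodendrocytes Gli3 stood at 1.26 ± 0.432 CPM.

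Gli3 was also counted in fibroblasts in 5 of 6 libraries (30 UMIs in all, 0 to 163 CPM). In mural cells, the pericytes and smooth muscle of vessels, it had 15 UMIs (0 to 337 CPM, from 6 to 76 nuclei per library). Gli2 in fibroblasts ranged from 22.4 to 103 CPM, on 15 UMIs in all 6 libraries together. Gli1 in fibroblasts had 4 UMIs and ranged from 0 to 42.4 CPM.

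Hhip, the decoy receptor, was set apart from the rest by being an oligodendrocyte gene. It had 149 ± 11.99 CPM there (137 to 170), 9.71 times its mean in astrocytes (15.4 ± 12.3), with no overlap. The means of the other ranked classes were at most 7.81 CPM. Of the small classes, not ranked, mural cells had 4 Hhip UMIs (0 to 103 CPM per library). Noradrenergic neurons had 6 (0 to 40.1 CPM). After thinning to 1000 UMIs it was seen in 13.0% of oligodendrocytes (12.4 to 13.7) and 1.40% of astrocytes (0.606 to 2.74). Unthinned, 25.2 to 31.5% of the oligodendrocytes of a library had a Hhip UMI.

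**Figure D1:**
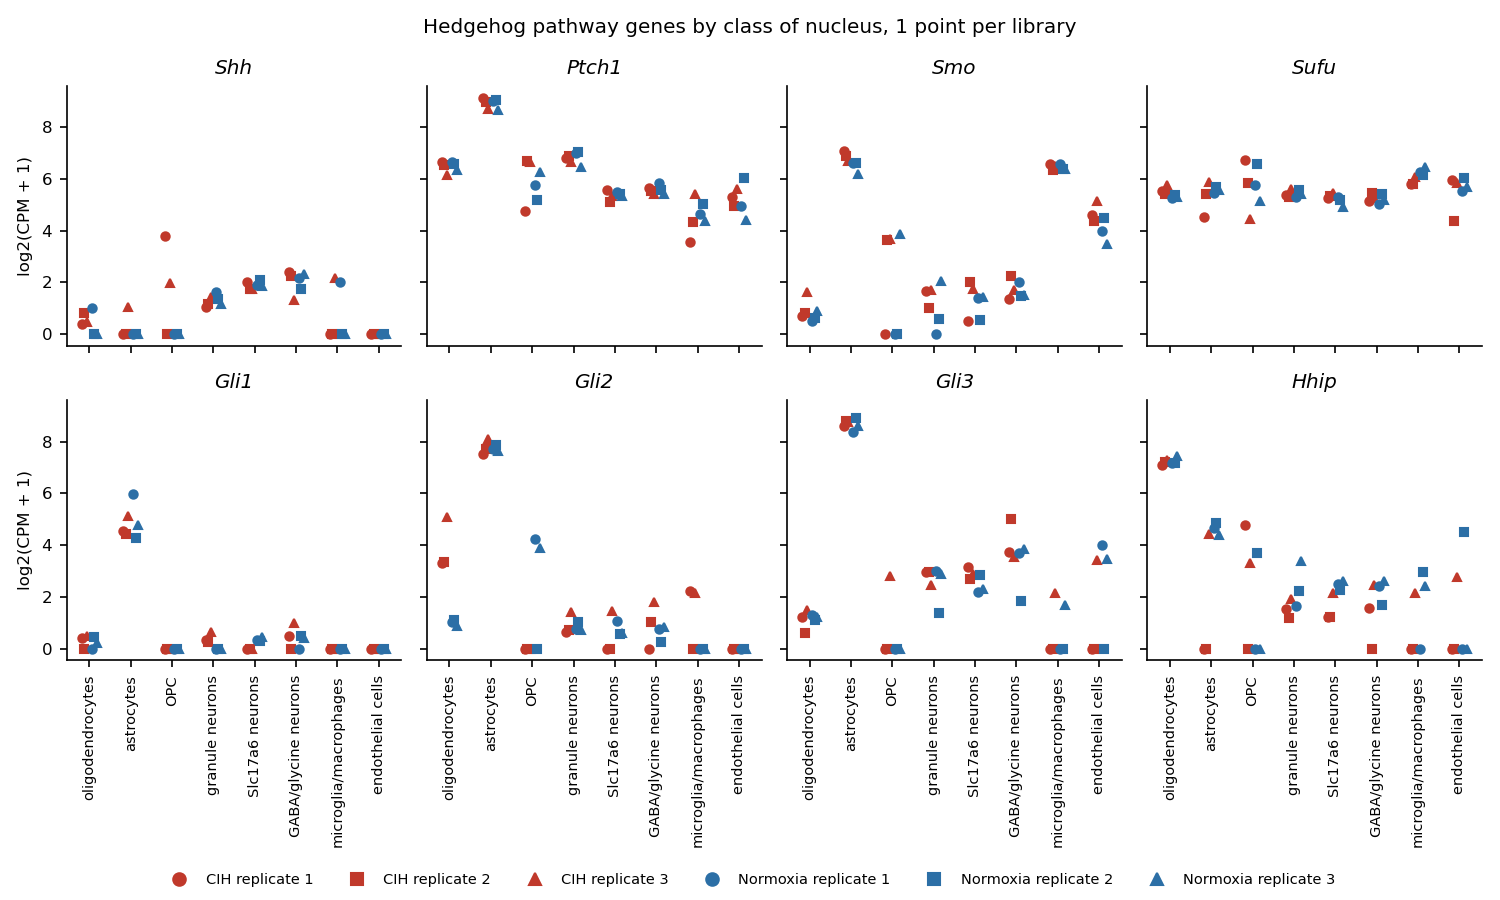
Level of each gene as log2(CPM + 1) in 8 classes of nuclei; each point is 1 library (red CIH, blue Normoxia; the shape gives the replicate; OPC, oligodendrocyte precursors). Gli1, Gli2, Gli3 and Ptch1 sit highest in astrocytes, Hhip in oligodendrocytes, and Sufu is even. In Gli2 the oligodendrocyte points of the 3 CIH libraries (8.78 to 32.9 CPM) lie above those of the 3 Normoxia libraries (0.849 to 1.12 CPM).

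By likeness of mean log2(CPM + 1) over the 8 classes, the genes closest to each member were found among 15993 genes with at least 5 CPM in a class. Closest to Gli2 were Fzd2, a Wnt receptor, with Pearson's r = 0.988, Gm19935 and BC055402. Gli1 was closest to Gm30075, Nat8 and Pln, and Gli3 to Sh2d4a, Pou3f4 and Gm49164. Ptch1 was closest to Lrig1 (r = 0.975), Ndp and Gm26621, and Smo to Ctsl (r = 0.981), Abi1 and Il6st. Sufu was closest to Senp6, Cab39 and Tmem68. Hhip was closest to BC051408 (r = 0.995), 9630009A06Rik and Gm33948, and Shh to Ntn3, Cntnap5b and Col26a1. With 8 classes from the same libraries, these correlations describe shared class patterns only.

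Between CIH and Normoxia, Gli2 in oligodendrocytes showed the widest difference of all tests of the 8 genes. The CIH libraries had 8.78, 9.21 and 32.9 CPM (27, 36 and 254 UMIs), and the Normoxia libraries 1.04, 1.12 and 0.849 CPM (5, 6 and 5 UMIs). All CIH values lay above all Normoxia values, and CIH replicate 3 was far above the other two. The log2 fold change in edgeR's quasi-likelihood fit was 4.12 (SE 0.636), the second highest of 13013 genes tested, and its Benjamini-Hochberg adjusted p was 0.193. Gli2 could pass the filter on low counts only through the CIH libraries.

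Of the 8 genes, 4 passed that filter in oligodendrocytes and 0 of these were called at an adjusted p of 0.05, where 0.00768% of all genes were. Gli2 and Sufu had an unadjusted p under 0.05, as did 757 genes in all. Same-numbered libraries deviated together in oligodendrocytes (correlations 0.158 to 0.438). So did replicates 1 and 2 across numbers (0.146 and 0.188), so these values set replicate 3 apart from 1 and 2 but do not tell 1 from 2. With the replicate number as a block, Gli2 was called at a log2 fold change of 4.03 (SE 0.370; edgeR adjusted p = 0.000911) and the other 3 were not, against a background of 0.753%. DESeq2 called Gli2 alone of the 8 (adjusted p = 6.97e-09), against a background of 0.0979%. Over the 16 alternatives the log2 fold change ran from 3.01 to 4.40 and the adjusted p from 6.97e-09 to 1.00. Of these, 5 called Gli2 and 11 did not, among the latter the fits without CIH replicate 1 or 2 and without any 1 Normoxia replicate (adjusted p = 0.245 to 1.00 in edgeR). Without CIH replicate 3, the library with the most astrocytes, the log2 fold change was 3.13 (adjusted p = 0.0116 in edgeR, 11 of 13091 genes called). Without replicate 3 of both groups it was 3.01 (adjusted p = 8.68e-07 in edgeR, 446 of 12540 genes called). The latter fit keeps only replicates 1 and 2, which were close to each other in both groups, so its p-values measure that narrow spread alone. The former keeps only replicates 1 and 2 of CIH, beside all 3 of Normoxia. With the shared barcodes kept the log2 fold change was 4.04 (adjusted p = 0.204 in edgeR).

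In astrocytes, where Gli2 is highest, the groups overlapped. The CIH libraries had 184, 208 and 271 CPM and the Normoxia libraries 208, 235 and 198 CPM, for a log2 fold change of 0.09 (SE 0.217). The difference between the oligodendrocyte and astrocyte changes was not tested. The 9 other tested genes within 1 Mb of Gli2 had log2 fold changes of -0.85 to 0.25 in oligodendrocytes (median 0.06), so none came near that of Gli2.

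The level in oligodendrocytes could include RNA from astrocytes, so it was set against the 12 astrocyte markers that no gate used. As a share of its astrocyte level in the same library, Gli2 in oligodendrocytes was 4.76, 4.43 and 12.2% in CIH and 0.499, 0.478 and 0.428% in Normoxia. The summed markers were at 0.594, 0.471 and 1.69% in CIH and at 0.422, 0.468 and 0.551% in Normoxia. Gli2 was thus 7.20 to 9.42 times the marker share in the CIH libraries and 0.778 to 1.18 times in the Normoxia libraries. None of the 12 reached the share of Gli2 in a CIH library: the highest was at 3.03, 1.97 and 5.96% (Agt, angiotensinogen, in CIH replicate 3). Hopx, a marker of Bergmann glia that is not among the 12, had enough astrocyte UMIs in 2 libraries only. It was at 36.7% in CIH replicate 3 and 10.8% in Normoxia replicate 3, above Gli2 in both. Dao, another such marker, was at 0.353, 0.195 and 1.11% in CIH, below Gli2 in each library. In Normoxia replicates 1 and 2 Dao was at 1.31 and 0.493%, above Gli2. The 8 gate markers of astrocytes, at which the gate itself cuts, summed to 2.69, 2.51 and 4.93% of their astrocyte level in CIH and 2.44, 2.49 and 2.59% in Normoxia. All 12 markers were above 0 in the oligodendrocyte sums of every library, and astrocyte RNA at the summed marker share would amount to 1.095, 0.977 and 4.57 CPM of Gli2 in the CIH libraries.

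Gli3, also highest in astrocytes, and Smo, whose astrocyte range overlapped that of microglia and macrophages, did not follow Gli2. Gli3 in oligodendrocytes was at 0.333, 0.115 and 0.419% of its astrocyte level in CIH and 0.448, 0.232 and 0.355% in Normoxia, below the summed marker share in all 3 CIH libraries and in 2 of 3 Normoxia libraries. Smo was at 0.490, 0.652 and 2.03% in CIH and 0.424, 0.581 and 1.17% in Normoxia, or 0.825 to 2.12 times the marker share.

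**Figure D2:**
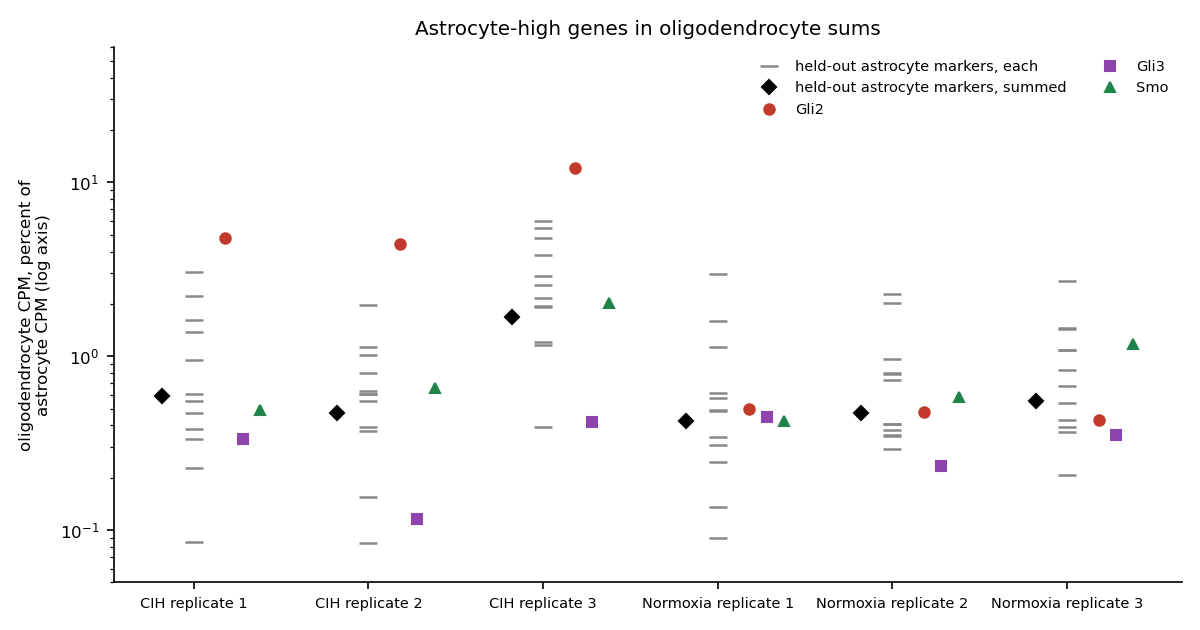
Oligodendrocyte CPM as a percentage of astrocyte CPM of the same library (log axis), for each of the 12 astrocyte markers kept out of the gates (grey dashes), their sum (black), Gli2, Gli3 and Smo. Gli2 lies above each of these 12 markers in the 3 CIH libraries (4.43 to 12.2%) and among the markers in the 3 Normoxia libraries (0.428 to 0.499%).

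Gli2 was also counted in oligodendrocytes that had no astrocyte marker UMI. In nuclei without a UMI of any of the 12 markers or the 8 gate markers of astrocytes, a subset defined after the data were seen, Gli2 stood at 11.3, 10.5 and 38.7 CPM in CIH (17, 18 and 82 UMIs in 568, 553 and 873 nuclei). In Normoxia it stood at 1.78, 0.795 and 1.22 CPM (4, 2 and 4 UMIs in 795, 911 and 1575 nuclei). The groups did not overlap. At these depths a nucleus without a marker UMI can still hold astrocyte RNA. Such nuclei made up 31.7% of the oligodendrocytes of CIH replicate 3 and 51.7 to 61.9% elsewhere.

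Gli2 was spread over many nuclei. In CIH, 26, 32 and 221 oligodendrocytes had a Gli2 UMI (2.54, 2.99 and 8.03%), and in Normoxia 5, 6 and 5 (0.337, 0.361 and 0.196%). Most had a single UMI, and no nucleus had more than 3. Thinned to 1000 UMIs per nucleus and pooled over libraries, 108 of 4678 CIH oligodendrocytes (2.31%, exact interval 1.90 to 2.78) and 4 of 5530 Normoxia oligodendrocytes (0.0723%, 0.0197 to 0.185) had one. These intervals hold counting error of pooled nuclei only, not the spread between libraries. In granule neurons, taken as a class that should lack Gli2, the pooled thinned share was 0.0580% (0.00702 to 0.209), an interval that overlapped that of Normoxia oligodendrocytes. Library medians of depth were 2067 to 3102 UMIs in oligodendrocytes and 2303 to 3103 in granule neurons. In thinned astrocytes the shares were 17.9% (14.3 to 22.02) in CIH and 20.6% (14.7 to 27.6) in Normoxia.

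The share of nuclei with astrocyte markers went in different directions. In CIH replicate 3, 30.8% of oligodendrocytes with Gli2 and 25.9% of those without had a UMI of the 12 markers. In CIH replicates 1 and 2 these shares were 7.69 and 6.25% with Gli2 against 12.7 and 12.5% without. By level, the markers summed to 130, 20.7 and 147 CPM in nuclei with Gli2 and to 47.5, 42.5 and 137 CPM in those without, so CIH replicate 1 was higher by level and lower by share. Nuclei with Gli2 were the deeper ones (median 3778, 3967 and 2875 UMIs, against 2556, 3077 and 2386).

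Oligodendrocytes were also split, after the data were seen, by Il33 or Opalin and by Anln or Sec14l5, genes that vary among mature oligodendrocytes. In nuclei with only Anln or Sec14l5, Gli2 had 4.46, 5.39 and 28.0 CPM in CIH and 0.548, 0.480 and 0 in Normoxia. In nuclei with UMIs of both pairs it had 13.0, 10.7 and 39.4 CPM in CIH and 0.742, 1.39 and 1.25 in Normoxia. CIH was above Normoxia in both kinds. In the 62 to 230 nuclei per library with only Il33 or Opalin it had 6.85, 46.2 and 32.02 CPM in CIH (1, 6 and 12 UMIs) and 8.79, 3.61 and 4.98 in Normoxia (2, 1 and 2 UMIs), and the groups overlapped.

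**Figure D3:**
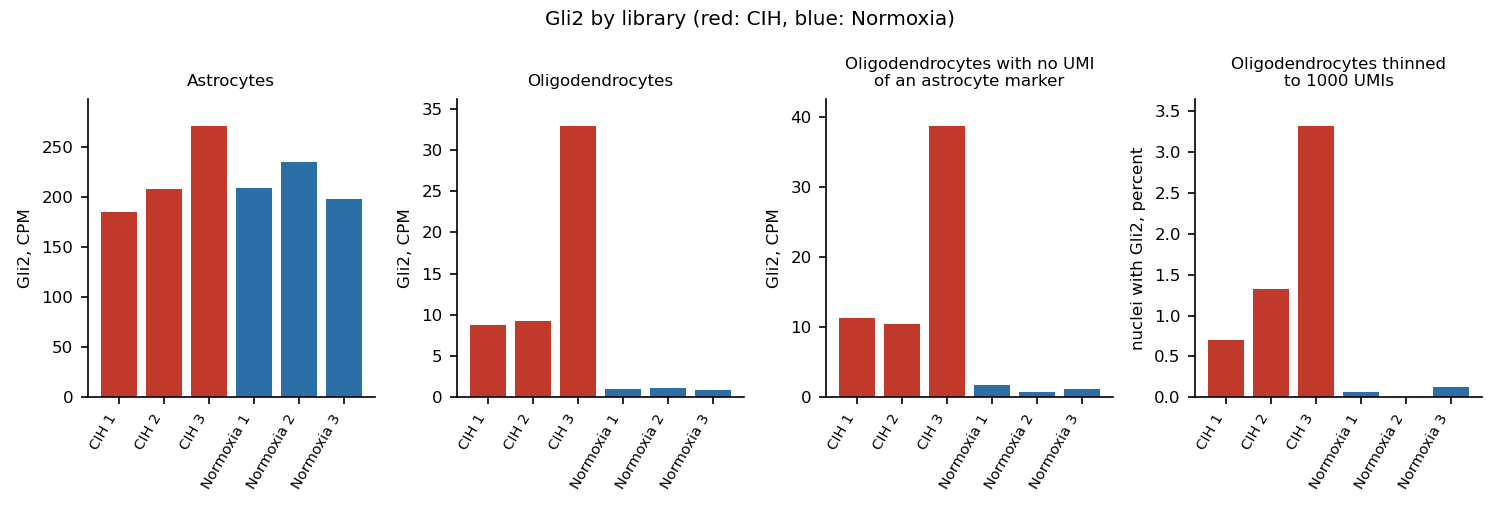
Gli2 in each library (red CIH, blue Normoxia): CPM in astrocytes, in oligodendrocytes and in oligodendrocytes with no UMI of an astrocyte marker, and the percentage of oligodendrocytes with a Gli2 UMI after thinning to 1000 UMIs. The groups overlap in astrocytes (184 to 271 CPM) and do not overlap in the 3 oligodendrocyte panels; Normoxia replicate 2 is at 0 in the last.

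The other 3 genes tested in oligodendrocytes differed little. Sufu stood at 45.9, 42.0 and 54.0 CPM in CIH and 37.0, 40.1 and 38.7 in Normoxia, without overlap (edgeR adjusted p = 0.859 for a log2 fold change of 0.28, SE 0.124). Ptch1 stood at 101, 91.3 and 70.4 CPM in CIH and 99.7, 95.4 and 80.5 in Normoxia (log2 fold change -0.10, SE 0.151). Hhip, the gene with the most oligodendrocyte UMIs, stood at 137, 146 and 156 CPM in CIH and 142, 144 and 170 in Normoxia (log2 fold change -0.07, SE 0.090). Both overlapped between the groups. Of the 4 genes 2 did not overlap, Gli2 and Sufu, where 11.8% of all genes in oligodendrocytes did not. Gli2 was listed with its difference known and passed the filter only through the CIH libraries, so this count is no test. Gli1, a target of Gli2, had 1, 0 and 3 UMIs in the CIH oligodendrocytes and 0, 2 and 1 in those of Normoxia.

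**Figure D4:**
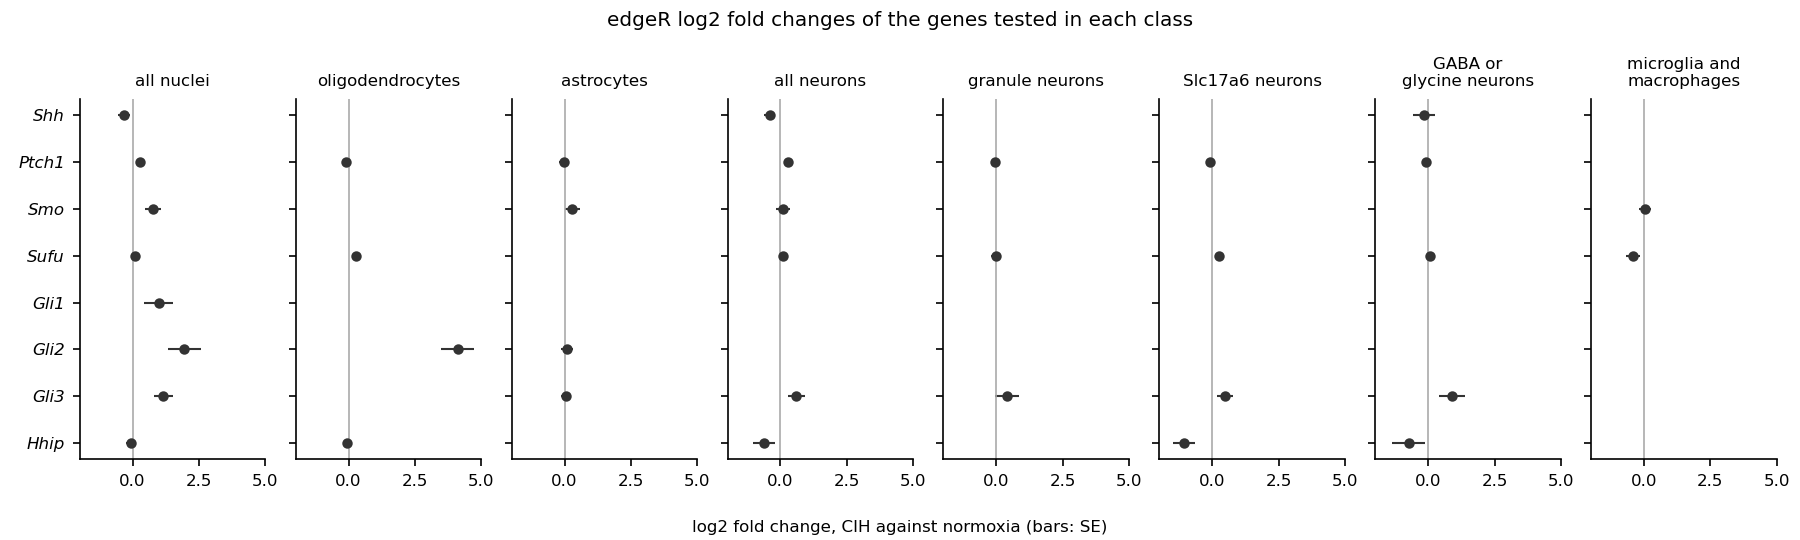
edgeR log2 fold changes of CIH against Normoxia with SE, for the genes that passed the filter on low counts in each class. Gli2 in oligodendrocytes (4.12, SE 0.636) and in all nuclei (1.95, SE 0.627) lies farthest to the right; Hhip in Slc17a6 neurons (-1.07, SE 0.411) lies farthest to the left.

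In astrocytes, 4 of the 8 genes were tested and 0 were called, as were 0% of all genes in edgeR (152 of them, 0 of the 8, had an unadjusted p under 0.05, and DESeq2 called 0). Smo stood at 133, 118 and 102 CPM in CIH and 98.1, 96.8 and 72.7 in Normoxia, without overlap (log2 fold change 0.30, SE 0.28), where 11.3% of all genes did not overlap. Gli3 (0.06, SE 0.192) and Ptch1 (-0.03, SE 0.191) overlapped between groups. Only 35 to 66 astrocytes stood behind each library but CIH replicate 3, which had 357.

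Over all neurons, 6 genes were tested and 0 called (background 0% in edgeR, with 2432 genes but 0 of the 6 at an unadjusted p under 0.05). DESeq2 called 326 genes and 0 of the 8, and 20.4% of all genes did not overlap. These sums mix classes in unequal shares: granule neurons were 40.0, 45.3 and 16.1% of neurons in CIH and 17.5, 19.3 and 9.69% in Normoxia. In the levels above, Shh was lower and Ptch1 higher in granule neurons than in Slc17a6 and in GABA or glycine neurons, and the part of these shares in the all-neuron values was not tested. Shh stood at 2.42, 2.33 and 1.77 CPM in CIH and 2.83, 2.75 and 2.99 in Normoxia, without overlap (log2 fold change -0.41, SE 0.203, adjusted p = 0.414). Hhip stood at 1.76, 1.62 and 4.89 CPM in CIH and 4.34, 3.45 and 5.29 in Normoxia. CIH replicate 3 overlapped the Normoxia libraries, and without it the log2 fold change went from -0.63 to -1.40 (adjusted p = 0.0204 in edgeR, 1108 of 17470 genes called). For Gli3 the log2 fold change was 0.60 (SE 0.316), and without replicate 3 of both groups 1.07 (adjusted p = 0.00168). That setting called 3179 of 17286 genes, Ptch1 (0.30) and Hhip (-1.20) among them. Its p-values measure only the narrow spread of replicates 1 and 2. Within the neuron classes the log2 fold change of Ptch1, called in none, was -0.06 in granule, -0.09 in Slc17a6 and -0.09 in GABA or glycine neurons.

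In granule neurons 3 genes were tested and 0 called (background 0% in edgeR, with 459 genes and 0 of the 3 at an unadjusted p under 0.05; DESeq2 called 4 genes and 0 of the 8), and 0 did not overlap against 10.3% of all genes. In Slc17a6 neurons 4 were tested and 0 called (background 0% in edgeR, with 959 genes and 1 of the 4, Hhip, at an unadjusted p under 0.05). DESeq2 called 2 genes there and 0 of the 8. Hhip there stood at 1.31, 1.35 and 3.47 CPM in CIH (3, 4 and 12 UMIs) and 4.68, 3.78 and 5.04 in Normoxia (17, 16 and 29 UMIs). The groups did not overlap (log2 fold change -1.07, SE 0.411, adjusted p = 0.642), as was so for 12.2% of all genes. In GABA or glycine neurons 5 were tested and 0 called (background 0.0072%), and 0 did not overlap against 12.1% of all genes. Gli3 had its widest neuronal difference there (log2 fold change 0.89, SE 0.481), with 30.8 CPM in CIH replicate 2 and 2.59 in Normoxia replicate 2 at the extremes. It was called with no filter on low counts (0.87, edgeR adjusted p = 0.0107), among 189 of 24654 genes. Without replicate 3 of both groups it was called at 1.63 (edgeR adjusted p = 0.0215), among 168 of 13775 genes. In microglia and macrophages 2 were tested and 0 called (background 0% in edgeR, with 292 genes and 0 of the 2 at an unadjusted p under 0.05; DESeq2 called 0). Sufu stood at 54.8, 54.4 and 65.6 CPM in CIH and 75.3, 69.6 and 86.1 in Normoxia, without overlap (log2 fold change -0.42, SE 0.265, adjusted p = 0.996), as did 10.9% of all genes. None of the 8 passed the filter in oligodendrocyte precursors or endothelial cells.

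Summed over all nuclei, all 8 genes were tested and 0 called (background 0.00509%), and 4 did not overlap, all higher in CIH, where 19.4% of all genes did not overlap. Gli2 stood at 5.58, 6.05 and 26.8 CPM in CIH and 3.43, 3.91 and 2.74 in Normoxia (log2 fold change 1.95, SE 0.627, adjusted p = 0.391). Gli3 stood at 12.7, 15.1 and 31.9 CPM in CIH and 10.3, 7.52 and 8.98 in Normoxia (log2 fold change 1.16, SE 0.349; adjusted p = 0.376 by edgeR and 0.0416 by DESeq2). The log2 fold changes of Smo (0.77, SE 0.290) and Ptch1 (0.26, SE 0.108) were smaller. In such sums the number of cells of a type and the RNA per cell cannot be told apart. Astrocytes were 0.805, 1.06 and 3.35% of nuclei in CIH and 0.979, 1.06 and 0.703% in Normoxia, and their part in these sums was not tested. Without replicate 3 of both groups the values were 0.65 for Gli2 (adjusted p = 0.00214 in edgeR) and 0.65 for Gli3 (edgeR adjusted p = 0.0007). Ptch1 (0.14) and Hhip (-0.32) were also called. That fit called 3486 of 19484 genes, and its p-values measure only the narrow spread of replicates 1 and 2.

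The other pathway genes, 49 in all, comprised ligand release, co-receptors, ciliary proteins, kinases that act on Gli and textbook targets. In oligodendrocytes 30 were tested and 0 passed in either direction, with 18 log2 fold changes above 0 and 12 below (median 0.06, against 0.01 over all genes). The smallest p there belonged to Arl13b, a small GTPase of the cilium (log2 fold change -0.30, SE 0.106, adjusted p = 0.805), Boc, a co-receptor of the ligands (0.76, SE 0.396) and Spop, which targets Gli2 and Gli3 for breakdown (0.13, SE 0.073). In astrocytes 10 were tested and 0 passed. Boc (-0.30, SE 0.229), Smurf1 (0.34, SE 0.288) and Btrc (-0.26, SE 0.237), both ubiquitin ligases, had the smallest p. Over all nuclei 46 were tested and 0 passed, with Boc (1.12, SE 0.208, adjusted p = 0.251), Disp1, which releases the ligands (-0.28, SE 0.077) and Sox9, also a marker of astrocytes (1.34, SE 0.428) in front. Boc stood at 24.4 to 40.3 CPM in the CIH libraries and 11.95 to 17.1 in those of Normoxia, without overlap. Its mean was 104 CPM in granule neurons and 5.70 and 7.02 CPM in Slc17a6 and in GABA or glycine neurons. Boc was higher in astrocytes, with a mean scaled CPM of 197 in CIH and 252 in Normoxia, against 116 and 94.9 in granule neurons. Granule neurons were 19.2, 22.7 and 4.50% of nuclei in CIH and 7.34, 8.20 and 4.31% in Normoxia. Astrocytes were 3.35% of nuclei in CIH replicate 3 and 0.703 to 1.06% elsewhere. Within granule neurons the log2 fold change of Boc was 0.30 (SE 0.124, edgeR adjusted p = 0.993). The part of the granule and astrocyte shares was not tested.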

How the data were processed

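The authors deposited filtered matrices of raw UMI counts per gene and barcode from 10x 3' libraries. Cell Ranger 6.1.2 is named per the file headers, and Cell Ranger 3.1.0, Seurat 4.0 and mm10 per the submitters' processing notes. Whether intronic reads or strand entered the counts is not given in the sources used here. The 8 members, the marker lists and the other pathway genes were chosen with earlier results of these data known. The rule for other named genes was the 3 pathway genes of smallest p in oligodendrocytes, astrocytes and all nuclei, any that passed in a class, and the 3 genes most like each member.

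Counts were summed per library and class with numpy 2.4.6 and pandas 2.3.3 (Python 3.11.15). edgeR 4.0.16 in R 4.3.3 (filterByExpr, TMM, quasi-likelihood F test, Benjamini-Hochberg over all genes of a class) compared groups where each library had at least 20 nuclei, so fibroblasts were not tested. The SE is the log2 fold change over the square root of F. Groups of 3 against 3 cannot reach an exact p under 0.1, so no single value was tested that way. Overlap of groups was judged on scaled CPM in the classes tested, and on CPM without scaling elsewhere. DESeq2 1.42.0, a replicate block and choices of library, nucleus, gate and depth were alternatives. No doublet caller was run; nuclei over 3 times their class's median UMIs were left out as an alternative. Same-numbered libraries correlated at over 0.1 in every pair in oligodendrocytes and in all neurons, but not in every pair elsewhere. The block used the replicate numbers of the labels, which do not say whether libraries were paired. Pairs of replicates 1 and 2 with different numbers had correlations of similar size, so these values do not establish the pairing. The edgeR step was tested on simulated data. The planned comparison of Gli proteins was not run, and promoter windows of Gli1 and Shh are not used here.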

Additional observations from a re-analysis of the deposited data

Results flagged for a closer look

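Sufu had log2 fold changes of opposite sign in separate classes and was called in neither. Its log2 fold change was 0.28 in oligodendrocytes, where every CIH library lay above every Normoxia library, and -0.42 in microglia and macrophages, where every CIH library lay below. The edgeR adjusted p was 0.859 in oligodendrocytes and 0.996 in microglia and macrophages. Of all genes, 11.8 and 10.9% did not overlap in these classes. The difference between these classes was not tested.

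Nuclei without a class were tested in no class of their own, though they are part of the sums over all nuclei. Of the 8 genes, 3 were higher there in every CIH library than in any Normoxia library, by CPM without scaling. The share of all genes that did so was not computed, so this count is a description only. In granule neurons 10.3% and over all neurons 20.4% of all genes did not overlap, in either direction. Gli2 had a median of 10.3 CPM in the CIH libraries (7.76, 10.3 and 38.5, against 5.32, 6.01 and 4.46 in Normoxia). Gli3 had a median of 20.8 CPM (16.9, 20.8 and 52.1, against 14.8, 8.31 and 10.7), and Ptch1 of 79.5 CPM (79.5, 78.7 and 96.2, against 75.2, 69.8 and 57.7). CIH replicate 3 was highest for each, and 35.5% of its nuclei had no class, against 19.1 to 21.96% elsewhere; its part in these values was not tested.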

How the results depend on the processing

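Over the 45 log2 fold changes of named genes, 693 alternatives were computed: 633 kept direction and side of the threshold, 21 newly passed it, 0 lost a call and 39 changed sign, all of the last without a call. Counts of called genes over all classes moved widely, in the order all nuclei, oligodendrocytes, astrocytes, oligodendrocyte precursors, all neurons, granule, Slc17a6 and GABA or glycine neurons, microglia and macrophages, endothelial cells: the edgeR fits called 1, 1, 0, 4, 0, 0, 0, 1, 0 and 0. DESeq2 called 237, 23, 0, 0, 326, 4, 2, 7, 0 and 0, and edgeR with no filter on low counts 4, 75, 7, 3, 51, 75, 183, 189, 12 and 2. With the replicate block, a fit that pairs same-numbered libraries, the counts were 1, 98, 2, 5, 259, 0, 2, 8, 5 and 6; of the 8 genes the block changed the call of Gli2 in oligodendrocytes only. Leaving out 1 library at a time gave 0 to 545, 0 to 11, 0 to 3, 0 to 5, 0 to 1108, 0 to 1, 0 to 38, 0 to 10, 0 to 7 and 0 to 3, the highest without CIH replicate 3 except in oligodendrocyte precursors (Normoxia replicate 2) and microglia and macrophages (Normoxia replicate 3). Without replicate 3 of both groups they were 3486, 446, 2, 0, 3179, 59, 340, 168, 22 and 0. The cause was not tested.

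Stricter limits on nuclei (at least 1000 genes, at most 1% mitochondrial UMIs) gave 0 in all nuclei, 2 in oligodendrocytes and 2 in microglia and macrophages. A gate with 1 more marker gave 2 in oligodendrocytes, 1 in oligodendrocyte precursors, 0 in GABA or glycine neurons and 1 in microglia and macrophages. A gate passed alone, added after the data were seen, gave 2 in oligodendrocytes, 0 in oligodendrocyte precursors and 0 in GABA or glycine neurons. Leaving out the deepest nuclei gave 0 in all nuclei, and keeping the shared barcodes, also added later, gave 2. Thinned to 2000 UMIs, 4.58% of CIH oligodendrocytes had Gli2.

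Signs changed as follows. Without replicate 3 of both groups the log2 fold change was -0.033 for Gli1 in all nuclei, -0.19 for Gli2 and 0.013 for Ptch1 in astrocytes, 0.45 for Shh in GABA or glycine neurons and -0.027 for Smo in microglia and macrophages. Under stricter limits it was 0.0034 for Hhip in all nuclei and -0.074 for Smo in microglia and macrophages. Without the deepest nuclei it was 0.036 for Hhip in all nuclei and -0.051 for Smo in all neurons. For Ptch1 in astrocytes it was 0.025 with no filter and 0.0076 with the replicate block. With 1 more marker it was 0.029 for Sufu in granule neurons, 0.056 for Ptch1 in GABA or glycine neurons and -0.081 for Smo in microglia and macrophages. With the gate passed alone it was -0.11 for Gli3 in granule neurons and -0.016 for Smo in microglia and macrophages. Leaving out 1 library at a time, values ran from -0.33 to 0.095 for Hhip in all nuclei, -0.22 to 0.057 for Ptch1 and -0.12 to 0.0096 for Hhip in oligodendrocytes. In astrocytes they ran from -0.14 to 0.18 for Gli2, -0.058 to 0.23 for Gli3 and -0.13 to 0.12 for Ptch1. They ran from -0.11 to 0.27 for Smo in all neurons. In granule neurons they ran from -0.091 to 0.72 for Gli3, -0.21 to 0.046 for Ptch1 and -0.14 to 0.052 for Sufu. They ran from -0.20 to 0.037 for Ptch1 in Slc17a6 neurons. In GABA or glycine neurons they ran from -0.17 to 0.013 for Ptch1, -0.015 to 0.17 for Sufu and -0.43 to 0.23 for Shh. They ran from -0.025 to 0.093 for Smo in microglia and macrophages. The cause was not tested. The 5 genes highest in astrocytes numbered 5 under each alternative run.

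Gate alternatives were not run for all nuclei, limits on nuclei and depth not for oligodendrocyte precursors, limits on nuclei not for endothelial cells, and no test for fibroblasts, with under 20 nuclei in a library. Few astrocytes and few UMIs per nucleus limit Gli1, Shh and most shares.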
